A study of Mus musculus with 9 samples.

Results

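The 47 genes described here belong to the lysosome. They encode its proteases, its sugar- and lipid-degrading hydrolases, 3 of its membrane proteins and 15 subunits of its proton pump, together with the protease inhibitor cystatin C (Cst3) and the transcription factors Tfeb and Tfe3. The genes came from a list of symbols that was matched to the gene names of the array. Of the 47, 45 were found under the listed symbol, and 2 (Tfeb and Tfe3) under their older names Tcfeb and Tcfe3, which RefSeq gives as synonyms. They were measured by 54 probes on 63 spots, out of 39429 probes for 31829 gene names on the array, and 7 of them had 2 probes each.

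RNA was measured in 3 adjacent layers at the back of the mouse eye: the choroid (CH), the vascular layer that feeds the outer retina; the retinal pigment epithelium (RPE), the pigmented cell layer in front of it; and the photoreceptors (PR), the light-sensing cells that face the RPE. All samples came from female C57BL/6 mice which, per the labels, were 6 months old with a range of 2 weeks either way; the methods of the study give a slightly younger age and a J substrain without the rd8 mutation of Crb1. No mouse was treated or carried an engineered allele. Each layer was cut from frozen sections with a laser microscope, and the RPE was removed before the choroid was collected. Every array holds the RNA of 1 eye, and each layer has 3 arrays. The sources do not say whether the eyes of a layer came from separate mice, so p-values here measure the spread between eyes. Sample RNA was labelled with Cy5 and the RNA it was set against, a pool from mouse RPE and choroid shared by all arrays, with Cy3, always in that orientation, so that a dye effect of a probe is shared by all arrays.

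Lysosomes are acidic compartments that break down protein, sugar chains and lipid. Their interior is acidified by the vacuolar proton pump, whose V1 sector burns ATP and whose membrane-bound V0 sector carries the protons across. The RPE is among the busiest degradative tissues of the body, since it takes up the shed tips of the photoreceptor outer segments every day and digests them in lysosomes. Macrophages of the choroid are rich in lysosomal enzymes as well. Tfeb and Tfe3 bind a short DNA element that occurs in front of many lysosomal genes and raise their transcription.

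Values are log2(Cy5/Cy3), the level in a layer relative to the common reference on a log2 scale, so a value compares layers for 1 probe and not genes with each other. A gene was called different between a pair of layers when its FC exceeded 2.5 (a log2 difference of 1.32) and its Benjamini-Hochberg adjusted p, from limma over all probes, was under 0.01. Each gene was read at its reported probe, the brightest of its probes that was free of Cy5 saturation and well above background on all arrays of at least 1 layer, or the brightest of all where none qualified.

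The arrays held 43020 spots other than controls. Median Cy5 signals were 1111 to 1139 on the CH arrays, 991 to 1534 on the RPE arrays and 617 to 963 on the PR arrays, and between 62.05% and 91.68% of probes stood well above background in Cy5, the highest share being that of RPE replicate 2. The arrays lay on 3 slides, each scanned in its own run: CH 1, CH 3, RPE 1 and RPE 3 on slide 1; CH 2, RPE 2 and PR 2 on slide 2; PR 1 and PR 3 on slide 3. The labels of the layers were checked against markers. Of 8 rod markers, 8 were called higher in PR than in RPE, and of 8 RPE markers 5 were called higher in RPE than in CH and 7 higher than in the PR, while Best1 stood below the background limit on every CH array. Markers of some cell types read higher on the CH arrays than on the RPE arrays. Called higher in the CH were 6 of 6 fibroblast, 4 of 6 pigment cell and 6 of 12 macrophage markers. None of these lists had a marker called in the other direction. Other lists did not follow: 0 of 6 endothelial markers were called (median log2 difference RPE minus CH -0.007). The 8 rod markers had positive differences, from 0.36 to 0.70, of which 0 were called. In dissected tissue, fewer cells of a type and less RNA per cell cannot be told apart.

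Like all genes on the array, the lysosomal genes were called more often against the photoreceptors than between RPE and CH. Between RPE and PR, 22 of the 47 genes were called higher in the RPE, where 10.9% of all genes on the array were, and 0 were called higher in the PR, where 5.17% of all genes were. At an adjusted p under 0.01 without the FC limit, 30 were higher in the RPE (20.8% of all genes) and 5 in the PR (19.2% of all genes); at an unadjusted p under 0.05, limma gave 34 and 7 of the 47, and 8722 and 8876 of all 31829 genes. Between CH and PR, 21 were called higher in the CH (background 12.7%) and 2, Ctsf and Atp6v1b2, higher in the PR (background 6.01%). Between RPE and CH, 2 were called higher in the RPE, Ctsd and Cst3 (background 0.182%), and 4 higher in the CH, Ctss, Ctsh, Atp6v0d2 and Atp6v0a4 (background 1.75%). Without the FC limit these last counts were 9 (background 4.8%) and 12 (background 7.48%). At an unadjusted p under 0.05, limma gave 17 and 17 of the 47, and 5333 and 5336 of all 31829 genes. Other scalings turned these 2 and 4 calls into 0 and 7 (arrays centred on their median), 1 and 4 (the log ratio of the scanner software) and 0 and 3 (the Cy5 channel alone, and the authors' series table). Cst3 saturated the scanner on nearly all arrays, as described below, and without it 1 of 46 genes was called higher in RPE than in CH and 21 of 46 higher than in the PR. The 3 comparisons share arrays in pairs, so their counts are not independent of each other.

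The median log2 difference over the 47 genes was 0.04 for RPE minus CH, 1.18 for RPE minus PR and 0.94 for CH minus PR. Over all genes it was 0.03, -0.004 and -0.05. The mean level was lowest in the PR for 35 of the 47 genes (74.5%), against 39.2% of all genes on the array. The layer with the highest mean was the RPE for 22 genes, the CH for 18 and the PR for 7.

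**Figure D1:**
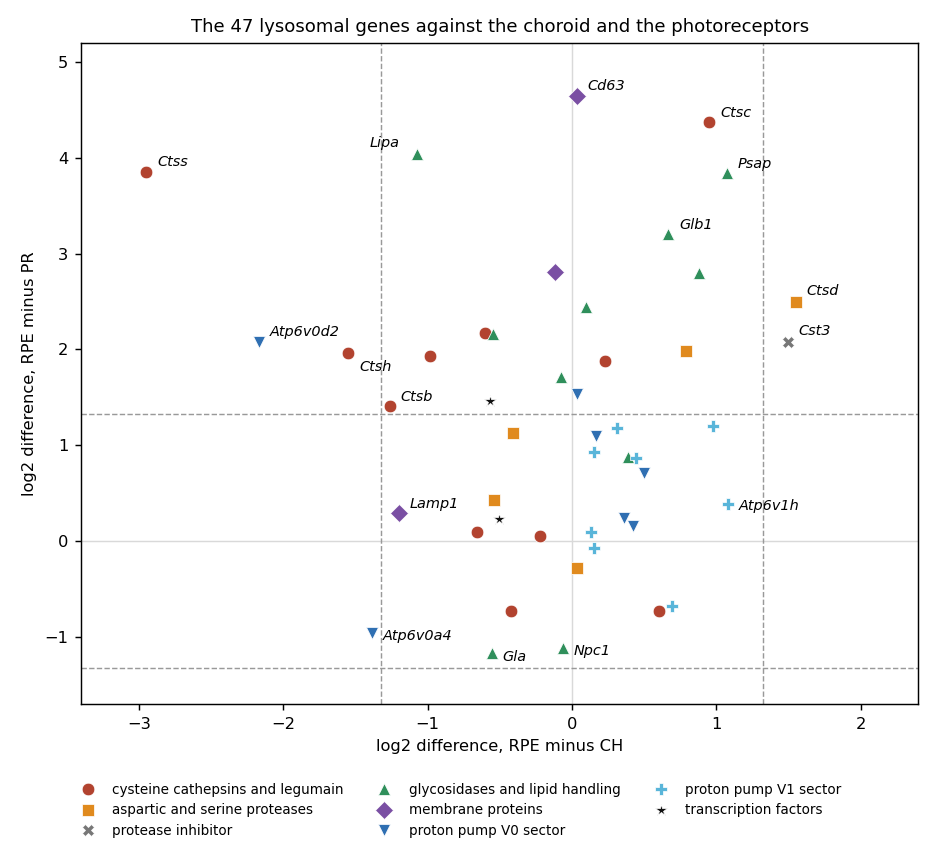
Log2 difference RPE minus CH (horizontal axis) against RPE minus PR (vertical axis) for the 47 genes at their reported probes, with symbols by role and dashed lines at a log2 difference of 1.32 in either direction. Most genes lie above 0 on the vertical axis and within the dashed lines on the horizontal axis; Ctss, Atp6v0d2, Ctsh and Atp6v0a4 lie to the left of them, and Cst3 (saturated) and Ctsd to the right.

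The cysteine cathepsins and legumain, which cut proteins in the acidic lumen, had calls against the PR and fewer between RPE and CH. Of 11 genes, 7 were called higher in RPE than in PR (background 10.9%): Ctsb, Ctsc, Ctsh, Ctsk, Ctsl, Ctss and Ctsz. The same number were called higher in CH than in PR (background 12.7%). With the Cy5 channel alone or in the series table, Ctsb (log2 RPE minus PR 0.72 and 0.80) and Ctsl (log2 1.27 in both) were no longer called over the PR in either layer, and with the scanner's log ratio Ctsb was not in the RPE (log2 1.27). In the RPE and CH comparison 2 were called higher in the CH, Ctss and Ctsh (background 1.75%), and 0 in the RPE (background 0.182%). At an unadjusted p under 0.05, limma gave 2 higher in the RPE and 7 higher in the CH. Of all 31829 genes, 5333 and 5336 were so. The group's median log2 difference was -0.60 for RPE minus CH and 1.88 for RPE minus PR.

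Ctss, cathepsin S, is a protease of macrophages and other antigen-presenting cells that trims the invariant chain. Its probe (NM_021281, mm9 chromosome 3, 95360245 to 95360304) read 1.05, 1.67 and 1.22 on CH arrays 1 to 3, -1.48, -1.59 and -1.82 on the RPE arrays and -5.32, -5.65 and -5.48 on the PR arrays. The 3 layers formed 3 separate bands, with the CH on top and the PR far below. The CH exceeded the RPE 7.72-fold (log2 RPE minus CH -2.95 ± 0.17 SE, n = 3 and 3 arrays, limma adjusted p = 3.4e-05), the RPE exceeded the PR 14.5-fold (log2 3.85 ± 0.17, adjusted p = 6.6e-08), and the CH exceeded the PR 112-fold (log2 6.80, adjusted p = 2.83e-09). With the Cy5 channel alone and in the series table the log2 difference RPE minus CH was smaller, at -1.77 and -1.83, and CH minus PR was 5.37 and 5.42, all still called.

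Ctsh, cathepsin H, is an aminopeptidase of lysosomes. It read -0.09, -0.08 and -0.65 on the CH arrays, -1.53, -1.87 and -2.07 on the RPE arrays and -3.88, -3.61 and -3.87 on the PR arrays (NM_007801, mm9 chromosome 9, 89970828 to 89970887). Again the CH arrays were highest and the PR arrays lowest, without overlap. The CH was 2.92-fold above the RPE (log2 RPE minus CH -1.55 ± 0.19 SE, adjusted p = 0.00056) and the RPE 3.9-fold above the PR (log2 1.96, adjusted p = 1.2e-05).

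Beside these genes the macrophage markers moved in the same order. The mean log2(Cy5/Cy3) of the 12 markers was -0.03 to 0.56 for CH, -0.92 to -0.79 for RPE and -2.88 to -2.78 for PR, and all 12 were well above background on every array. Their log2 differences RPE minus CH ran from -1.99 for Emr1 to 0.53 for Csf1r, with a median of -1.29. The means of the fibroblast and pigment cell markers had the same order, with median log2 differences RPE minus CH of -2.41 and -1.59. The CH was highest and the PR lowest for 17 of the 47 genes (36.2%) and for 21.4% of all genes. The part of RNA from macrophages or these other cell types in the differences of Ctss and Ctsh was not tested.

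Ctsc, cathepsin C or dipeptidyl peptidase 1, activates the serine proteases of immune cells and had the reverse order between the pigmented and vascular layers. It read -0.64, -0.77 and -0.87 on the CH arrays, 0.30, 0.29 and -0.02 on the RPE arrays and -4.18, -4.06 and -4.30 on the PR arrays. All RPE arrays were above all CH arrays, and the PR arrays were far below both. The RPE was 20.7-fold above the PR (log2 4.37 ± 0.12 SE, adjusted p = 7.23e-09); its 1.93-fold excess over the CH (log2 0.95, adjusted p = 0.0007) passed the p threshold and not the FC threshold. Among the cathepsins, this was the largest difference between RPE and PR.

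Ctsb, the abundant cathepsin B, was 2.4-fold higher in CH than in RPE (log2 -1.26 ± 0.12 SE, adjusted p = 0.0002), just short of the FC limit, with 1 CH array saturated, so the value is not exact. After centring each array on its median in place of loess, Ctsb was called, at a log2 difference of -1.59. Ctsk, the collagen-degrading cathepsin K, was 1.97-fold higher in the CH (log2 -0.98, adjusted p = 0.0012) and 3.81-fold higher in RPE than in PR. Ctsl and Ctsz did not pass between RPE and CH (log2 0.23 and -0.60, adjusted p = 0.24 and 0.016) and were 3.69-fold and 4.5-fold higher in RPE than in PR.

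Ctsf, cathepsin F, went the other way. It was 2.53-fold higher in PR than in CH (log2 CH minus PR -1.34 ± 0.11 SE, adjusted p = 3.29e-06), with the RPE between them: 1.52-fold above the CH (adjusted p = 0.0038) and 1.66-fold below the PR (adjusted p = 0.00029). The call against the CH was lost without CH replicate 2 (log2 -1.28) or without PR replicate 3 (log2 -1.30). Lgmn, legumain, which cleaves after asparagine, was 1.65-fold lower in RPE than in PR (adjusted p = 0.0021) without reaching the FC limit, and Ctso was 1.57-fold higher in CH than in RPE (adjusted p = 0.0097).

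Ctsw, cathepsin W of cytotoxic lymphocytes, differed least between RPE and PR in this group. It read 0.42, 0.88 and 0.53 on the CH arrays, 0.34, 0.35 and 0.49 on the RPE arrays and 0.42, 0.17 and 0.40 on the PR arrays, and the ranges of the 3 layers overlapped. Its log2 difference RPE minus PR was 0.06 ± 0.13 SE (adjusted p = 0.75), and its log2 difference RPE minus CH was -0.22 (adjusted p = 0.29).

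**Figure D2:**
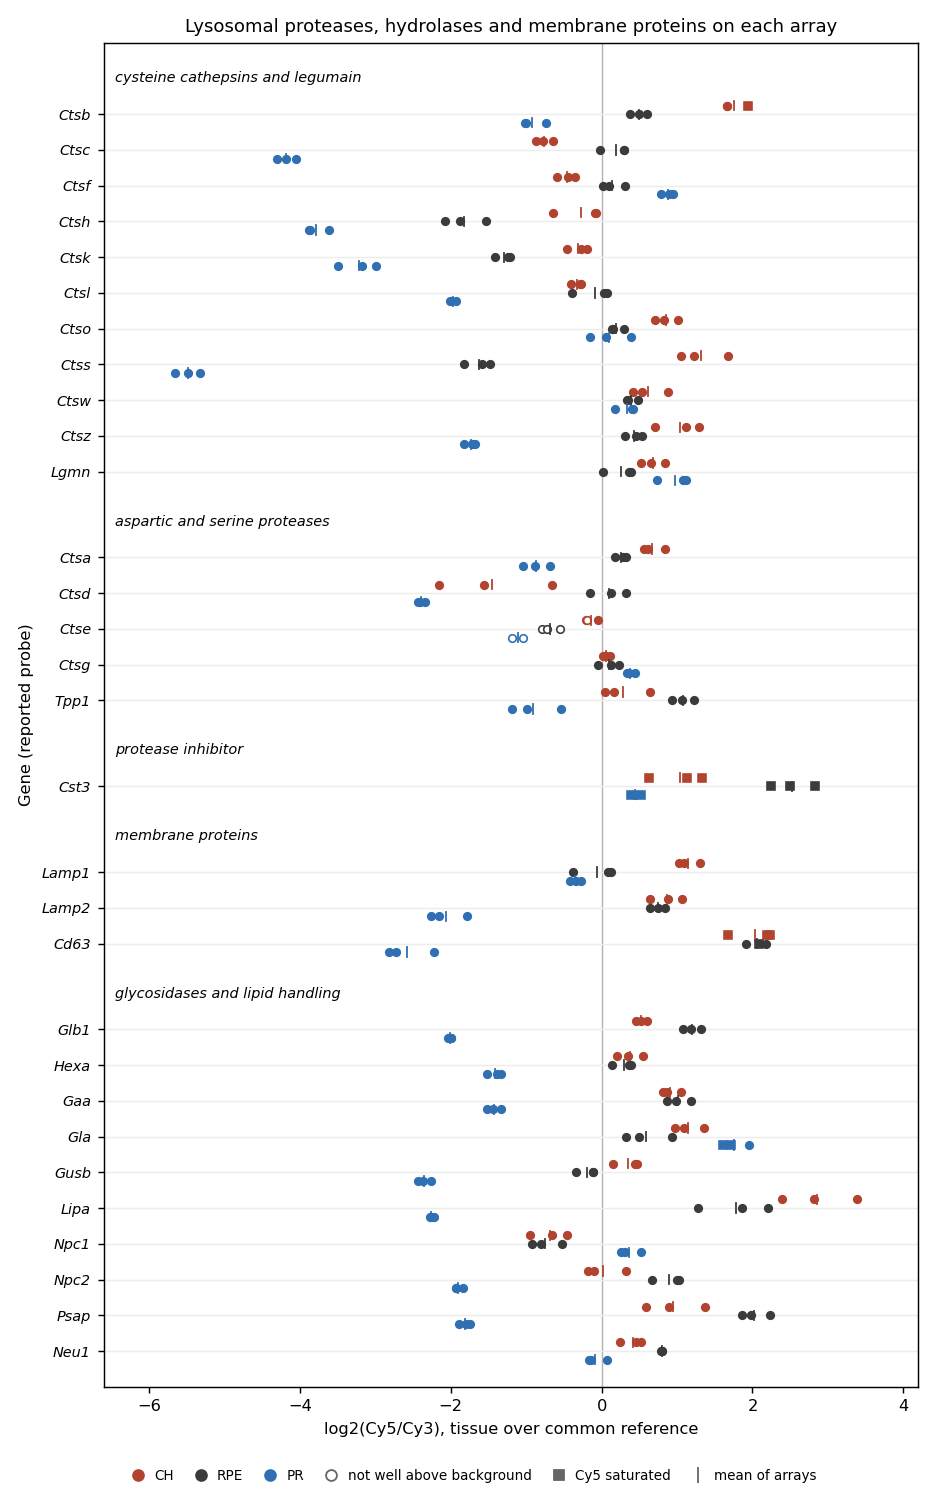
Log2(Cy5/Cy3) of each array (horizontal axis) for the proteases, the inhibitor Cst3, the membrane proteins and the hydrolases (vertical axis, grouped by role), with CH arrays in red, RPE arrays in black, PR arrays in blue, ticks at the mean of 3 arrays, open symbols for spots not well above background and squares for saturated ones. The blue points lie to the left for most rows; the exceptions include Ctsf, Lgmn, Gla and Npc1, where they lie farthest to the right.

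The 5 aspartic and serine proteases were less uniform. Ctsd and Tpp1 were called higher in RPE than in PR, and Ctsa was called higher in CH than in PR alone. Ctsd was the only gene of this group called between RPE and CH, and its 2 probes disagreed there.

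Ctsd, the aspartic protease cathepsin D, is the main enzyme that degrades rhodopsin in the RPE. Its reported probe (NM_009983, mm9 chromosome 7, minus strand, listed interval 149566847 to 149568505) read -0.65, -1.55 and -2.15 on the CH arrays, 0.12, 0.32 and -0.15 on the RPE arrays and -2.43, -2.41 and -2.34 on the PR arrays. The RPE arrays were all above the CH arrays, which were spread over the widest range of any layer and gene here, and the PR arrays were lowest. The RPE exceeded the CH 2.93-fold (log2 1.55 ± 0.31 SE, adjusted p = 0.006) and the PR 5.62-fold (log2 2.49 ± 0.31, adjusted p = 7.8e-05). The second Ctsd probe (149561962 to 149562021) was brighter, and its Cy5 signal was saturated on 2 CH arrays and 1 RPE array. It read 1.21, 1.39 and 1.64 on the CH arrays, 1.75, 2.1 and 1.56 on the RPE arrays and -2.04, -1.80 and -1.99 on the PR arrays. On this probe the CH and RPE ranges overlapped, the log2 difference RPE minus CH was 0.41 ± 0.16 SE (adjusted p = 0.11), and the RPE exceeded the PR 13.6-fold (log2 3.76, adjusted p = 6.5e-08), a value that saturation makes inexact.

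The call of Ctsd over the CH was fragile. It was lost without CH replicate 2 (log2 1.50, adjusted p = 0.027), CH replicate 3 (log2 1.20, adjusted p = 0.0076), any of the 3 RPE arrays (log2 1.44 to 1.68, adjusted p = 0.014 to 0.026), PR replicate 1 (adjusted p = 0.011) or PR replicate 3 (adjusted p = 0.012), and with slide as a block (adjusted p = 0.013). It was also lost under median centring (log2 1.34), the scanner's log ratio (log2 1.47), the Cy5 channel alone (log2 1.26), the series table (log2 1.24), and with 2 layers fitted. It held without CH replicate 1, at a log2 difference of 1.95, and without PR replicate 2. The excess over the PR stayed called under every refitted alternative and with any array left out.

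The 2 probes lie 4825 bases apart in the mm9 coordinates of the array files, with the reported probe nearer the start of the gene. Its interval covers 1659 bases for 60 printed bases, so that the probe is listed across more than 1 exon. The sequences of the 2 probes are given because their readings of Ctsd differ. Labelling started at the 3′ end of the RNA according to the methods; the part of probe position in the disagreement was not tested.
Ctsd reported probe: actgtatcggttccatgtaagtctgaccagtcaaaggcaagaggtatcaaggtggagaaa
Ctsd second probe: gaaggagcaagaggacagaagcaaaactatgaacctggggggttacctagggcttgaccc

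Tpp1, tripeptidyl peptidase 1, a serine protease whose loss causes a childhood storage disease of neurons, read 0.05, 0.16 and 0.64 on the CH arrays, 1.07, 1.23 and 0.94 on the RPE arrays and -0.54, -1.19 and -0.99 on the PR arrays. The RPE arrays read highest and the PR arrays lowest, without overlap. The RPE was 3.95-fold above the PR (log2 1.98 ± 0.19 SE, adjusted p = 1.6e-05), while the log2 difference RPE minus CH of 0.79 did not pass (adjusted p = 0.017). Ctsa, the protective protein that holds neuraminidase and beta-galactosidase together, differed by a log2 of -0.41 between RPE and CH (adjusted p = 0.036) and was 2.19-fold higher in RPE than in PR (adjusted p = 2.6e-05), under the FC limit. It was called higher in CH than in PR (2.91-fold, adjusted p = 2.4e-06), but not at its second probe (2.09-fold, adjusted p = 2.7e-06), with the Cy5 channel alone (log2 0.67) or in the series table (log2 0.90).

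Ctsg, cathepsin G of neutrophil and mast cell granules, read 0.05, 0.12 and 0.02 on the CH arrays, -0.05, 0.23 and 0.12 on the RPE arrays and 0.44, 0.36 and 0.34 on the PR arrays. CH and RPE overlapped, and the PR arrays were slightly higher, at a log2 difference RPE minus PR of -0.28 ± 0.10 SE (adjusted p = 0.035). Ctse, cathepsin E, was well above background on 1 CH array, on no RPE array and on 1 PR array, and its spot on PR replicate 1 was marked as an outlier and left out. With most arrays of each layer below that limit, it has no FC.

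Cst3, cystatin C, is a secreted inhibitor of the cysteine cathepsins that the RPE makes in large amounts. It read 1.33, 0.63 and 1.13 on the CH arrays, 2.83, 2.5 and 2.25 on the RPE arrays and 0.52, 0.44 and 0.39 on the PR arrays (NM_009976, mm9 chromosome 2, 148697681 to 148697740). The RPE arrays were highest without overlap, yet the Cy5 signal was saturated on all 3 CH, all 3 RPE and 2 of 3 PR arrays. Raw Cy5 signals were 592549 to 641280 on the CH arrays, 590916 to 644735 on the RPE arrays and 506100 to 648835 on the PR arrays. What differed between layers was the Cy3 signal of the reference, which was 30286 to 40807 on the RPE arrays, 69206 to 96035 on the CH arrays and 121193 to 221288 on the PR arrays. The fit gave a log2 difference RPE minus CH of 1.50 ± 0.19 SE (adjusted p = 0.00075) and RPE minus PR of 2.08 (adjusted p = 9.5e-06), which count as calls above but from which no FC can be given. In the Cy5 channel alone, the differences were 0.07 and 0.05, neither called, and without CH replicate 2 the first was 1.30 and no longer called.

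The membrane proteins of the lysosome were all called higher in CH than in PR, and Lamp2 and Cd63 also in the RPE over the PR. The call of Lamp1 (log2 CH minus PR 1.49) was lost with the scanner's log ratio (log2 1.32, just under the limit), the Cy5 channel alone (log2 0.85) and the series table (log2 0.93). None of the 3 was called between RPE and CH, where limma gave 1 lower and 0 higher in the RPE at an unadjusted p under 0.05. Lamp1, the major glycoprotein that lines the membrane, read 1.03, 1.31 and 1.09 on the CH arrays, 0.13, 0.08 and -0.39 on the RPE arrays and -0.42, -0.28 and -0.34 on the PR arrays. The CH arrays stood alone at the top, and the lowest RPE array fell inside the PR range. Lamp1 was 2.3-fold higher in CH than in RPE (log2 -1.20 ± 0.14 SE, adjusted p = 0.00057), past the p threshold but not the FC threshold; with median centring it was called (log2 -1.56). Its log2 difference RPE minus PR was 0.29 (adjusted p = 0.13).

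Cd63, a tetraspanin of late endosomes, lysosomes and melanosomes, read 2.19, 1.68 and 2.23 on the CH arrays, 2.19, 2.09 and 1.92 on the RPE arrays and -2.72, -2.22 and -2.81 on the PR arrays. CH and RPE overlapped and both stood far above the PR. Saturation on all 3 CH arrays leaves a bound, at least 6.55-fold above the PR (adjusted p = 3.2e-08). The log2 difference RPE minus PR of 4.65 ± 0.19 SE (adjusted p = 4.5e-08), with 1 RPE array saturated is not exact: it was 2.75 in the Cy5 channel alone and 2.81 in the authors' own table.

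Lamp2, needed for the fusion of autophagic vesicles with lysosomes, is spliced into alternative forms. Its reported probe, which carries the accession NM_010685, read 0.64, 0.88 and 1.07 on the CH arrays, 0.75, 0.84 and 0.64 on the RPE arrays and -1.78, -2.15 and -2.27 on the PR arrays, with CH and RPE overlapping. The second probe, with the accession NM_001017959, read -0.81, -0.87 and -0.94 on the CH arrays, -0.22, 0.04 and -0.31 on the RPE arrays and -2.73, -2.68 and -2.80 on the PR arrays, with no overlap between any layers. The log2 difference RPE minus CH was -0.12 ± 0.15 SE at the first (adjusted p = 0.64) and 0.71 ± 0.11 SE at the second (adjusted p = 0.0016), while both were called over the PR (7.01-fold and 5.95-fold). Each probe is assigned to another transcript of the gene, and in mm9 they lie on the minus strand of chromosome X, 4671 bases apart.

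The glycosidases and lipid-handling proteins were called against the PR and not between RPE and CH. Of 10 genes, 7 were called higher in RPE than in PR (background 10.9%): Glb1, Hexa, Gaa, Gusb, Lipa, Npc2 and Psap. The same 7 were called higher in CH than in PR (background 12.7%). Between RPE and CH 0 were called, near the background of 0.182% higher in the RPE and 1.75% higher in the CH. Without the FC limit, 3 were higher in the RPE (background 4.8%) and 1 in the CH (background 7.48%). In that comparison limma gave 4 higher and 3 lower in the RPE at an unadjusted p under 0.05. The median log2 difference of the group was 0.02 for RPE minus CH and 2.30 for RPE minus PR.

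Lipa, the lysosomal acid lipase that frees cholesterol from its esters, read 2.82, 3.38 and 2.39 on the CH arrays, 1.86, 2.21 and 1.28 on the RPE arrays and -2.28, -2.22 and -2.27 on the PR arrays. The PR arrays were nearly alike, and the CH arrays lay above the RPE arrays without overlap but with a wide spread. Lipa was 16.5-fold higher in RPE than in PR (log2 4.04 ± 0.27 SE, adjusted p = 9.6e-07) and 34.7-fold higher in the CH (log2 5.12, adjusted p = 1.5e-07). Its log2 difference RPE minus CH of -1.08 did not pass (adjusted p = 0.017), and it was called with median centring (log2 -1.45).

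Psap, prosaposin, the precursor of the saposins that present sphingolipids to their hydrolases, read 1.37, 0.59 and 0.89 on the CH arrays, 2.23, 1.86 and 1.98 on the RPE arrays and -1.80, -1.75 and -1.89 on the PR arrays. Here the RPE arrays were highest, without overlap. The RPE exceeded the PR 14.3-fold (log2 3.84 ± 0.18 SE, adjusted p = 1.2e-07) and the CH 2.11-fold (log2 1.07, adjusted p = 0.0028), the latter under the FC limit; with the Cy5 channel alone these were log2 2.45 and 0.43. Glb1, beta-galactosidase, had the same order at 9.2-fold over the PR and 1.59-fold over the CH (adjusted p = 0.001), as had Npc2, the soluble carrier of cholesterol, at 6.94-fold and 1.84-fold (adjusted p = 0.0029). Gusb, beta-glucuronidase, and Hexa, the alpha chain of beta-hexosaminidase, were 4.47-fold and 3.27-fold higher in RPE than in PR.

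Neu1, the lysosomal sialidase, differed least between RPE and PR in this group. It read 0.53, 0.25 and 0.46 on the CH arrays, 0.81, 0.79 and 0.79 on the RPE arrays and -0.17, 0.07 and -0.14 on the PR arrays. The layers did not overlap, but the FC was 1.84 between RPE and PR (log2 0.88 ± 0.10 SE, adjusted p = 6.2e-05) and 1.31 between RPE and CH (adjusted p = 0.026).

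Gla and Npc1 ran against the group. Gla, alpha-galactosidase A, was 2.25-fold lower in RPE than in PR (log2 -1.17 ± 0.17 SE, adjusted p = 0.00026), a value that is not exact because 2 PR arrays were saturated; without RPE replicate 1 (log2 -1.35) or with slide as a block (log2 -1.43) it was called. Its raw Cy5 signals were 268738 to 645647 over the 9 arrays. Npc1, the membrane partner of Npc2 in cholesterol export, was 2.17-fold lower in RPE than in PR (log2 -1.11, adjusted p = 0.00015) and 2.07-fold lower in CH than in PR (adjusted p = 0.0002), and the first of these was called with median centring (log2 -1.52), the scanner's log ratio (log2 -1.41) or slide as a block (log2 -1.35), the second with the scanner's log ratio (log2 -1.35).

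Gaa, acid alpha-glucosidase, which degrades glycogen, was called at 1 of its 2 probes. The reported probe (NM_008064, mm9 chromosome 11, plus strand, 119146697 to 119146756) read 0.82, 0.87 and 1.05 on the CH arrays, 0.99, 1.18 and 0.86 on the RPE arrays and -1.44, -1.33 and -1.52 on the PR arrays. The other probe (119136014 to 119136073) read -0.37, -0.78 and -0.69, then -0.08, 0.00 and -0.18, and then -0.39, -0.46 and -0.37 on the same arrays. RPE over PR was 5.42-fold at the first (adjusted p = 9.7e-08) and 1.25-fold at the second (adjusted p = 0.044), a gap of 2.12 on the log2 scale. The second probe lies 10623 bases nearer the start of the gene. The part of probe position was not tested here either, and the sequences of both are given for that reason.
Gaa reported probe: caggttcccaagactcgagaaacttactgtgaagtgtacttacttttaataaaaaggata
Gaa second probe: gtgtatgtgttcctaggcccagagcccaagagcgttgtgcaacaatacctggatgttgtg

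**Figure D3:**
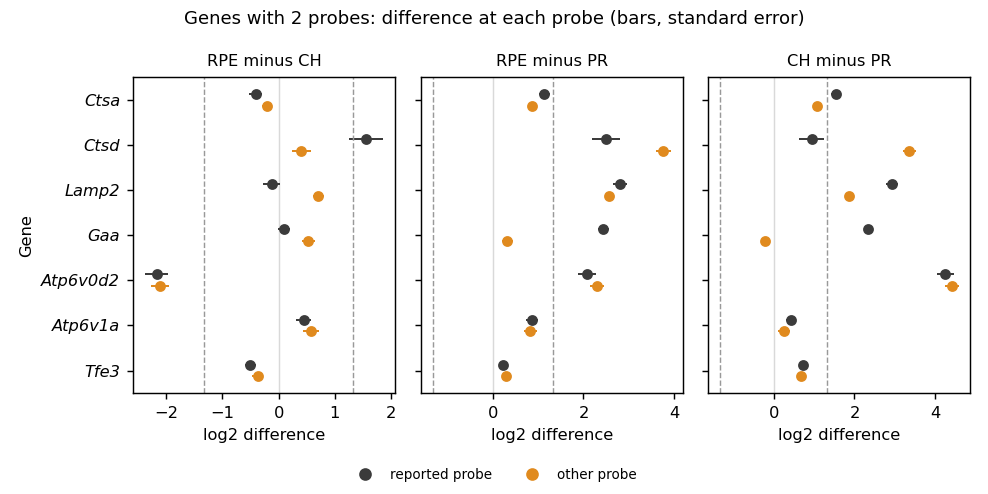
Log2 difference (horizontal axes) of the 7 genes with 2 probes (vertical axis) in each comparison, with black points for the reported probe, orange points for the other, bars for the standard error and dashed lines at 1.32 in either direction. The probes of Atp6v0d2, Atp6v1a and Tfe3 lie together. Those of Ctsd and Gaa, and for CH minus PR also those of Ctsa, lie on different sides of a dashed line.

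The proton pump had few calls. Of its 15 subunits, 2 were called higher in RPE than in PR (Atp6v0a2 and Atp6v0d2) and 0 higher in PR than in RPE (background 5.17%). Called higher in CH than in RPE were 2 (Atp6v0d2 and Atp6v0a4), where 1.75% of all genes were. None was called higher in RPE than in CH (background 0.182%). The share called over the PR was thus near the background of 10.9%. Without the FC limit, 8 subunits were higher in RPE than in PR (20.8% of all genes) and 1 lower (19.2% of all genes). At an unadjusted p under 0.05, limma gave 8 subunits higher in RPE than in CH and 2 lower, and 10 higher in RPE than in PR and 2 lower. Of all 31829 genes, 5333 and 5336 were so in the first comparison, and 8722 and 8876 in the second. The median log2 difference RPE minus CH was 0.17 over the V0 sector and 0.38 over the V1 sector, and RPE minus PR 0.71 and 0.63.

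Atp6v0d2, the d subunit form found in osteoclasts, macrophages and some epithelia, had the same order of layers as Ctss and Ctsh. It read 0.70, 1.08 and 0.56 on the CH arrays, -1.17, -1.50 and -1.50 on the RPE arrays and -3.68, -3.72 and -3.01 on the PR arrays (NM_175406, mm9 chromosome 4, 19804304 to 19804363). The 3 layers did not overlap. The CH was 4.5-fold above the RPE (log2 RPE minus CH -2.17 ± 0.21 SE, adjusted p = 0.0002), the RPE 4.23-fold above the PR (adjusted p = 1.7e-05) and the CH 19.0-fold above the PR (adjusted p = 9.6e-08). Its second probe gave 4.33-fold, 4.92-fold and 21.3-fold for the same 3 comparisons. Its ubiquitous counterpart Atp6v0d1 read -0.25, -0.38 and -0.57 on the CH arrays, -0.01, 0.14 and -0.06 on the RPE arrays and -0.28, -0.03 and -0.08 on the PR arrays. RPE and PR overlapped for Atp6v0d1, and no comparison passed (log2 RPE minus CH 0.42, adjusted p = 0.026; log2 RPE minus PR 0.15, adjusted p = 0.31).

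Atp6v0a4, the a subunit form of kidney and inner ear epithelia, read 0.63, 0.83 and 0.81 on the CH arrays, -0.78, -0.80 and -0.29 on the RPE arrays and 0.41, 0.42 and 0.17 on the PR arrays (NM_080467, mm9 chromosome 6, 37998490 to 37998549). It was the only gene of the 47 with the CH highest and the RPE lowest. Its probe was well above background on all CH and PR arrays and on no RPE array, so its level there is known only as a limit. In the Cy5 channel alone, which is open to dye bias, the CH stood at least 3.12-fold and the PR at least 2.23-fold above the RPE. The fit of Cy5/Cy3 gave smaller values, a log2 difference RPE minus CH of -1.38 ± 0.15 SE (adjusted p = 0.00033) and RPE minus PR of -0.96 (adjusted p = 0.00036), so the bounds hold for the Cy5 channel and not for this ratio. With the scanner's log ratio these differences were -2.46 and -1.93, both called. The call was lost without RPE replicate 1 (log2 -1.31) or RPE replicate 2 (log2 -1.29), with the Cy5 channel alone (log2 -1.69, adjusted p = 0.015) and in the authors' series table (log2 -2.0, adjusted p = 0.024).

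Atp6v0a2, the a subunit form of the Golgi and endosomes, read 1.26, 1.16 and 0.84 on the CH arrays, 1.54, 1.01 and 0.82 on the RPE arrays and -0.81, -0.19 and -0.22 on the PR arrays. CH and RPE overlapped, and the PR arrays were lower. The RPE exceeded the PR 2.9-fold (log2 1.53 ± 0.22 SE, adjusted p = 0.00024) and the CH exceeded it 2.83-fold (adjusted p = 0.00024). Both calls were lost where the log2 difference slipped under 1.32: with the Cy5 channel alone, the scanner's own log ratio, the series table and slide as a block for both, median centring for the first (log2 1.31), and without PR replicate 1 for the second (log2 1.30). Atp6v0a1, the a subunit form of neurons, was 2.1-fold higher in RPE than in PR (adjusted p = 0.00034) and did not differ past the threshold between RPE and CH. The proteolipid subunits Atp6v0b and Atp6v0c differed by log2 values of 0.36 and 0.50 for RPE minus CH and of 0.25 and 0.71 for RPE minus PR, of which 0.71 alone passed the p threshold (adjusted p = 0.0011).

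In the V1 sector, RPE minus CH was positive for 8 of 8 subunits, from 0.13 to 1.08 on the log2 scale, though 2 alone, Atp6v1h and Atp6v1e1, passed the p threshold and 0 the FC limit. Of all genes, 17553 of 31829 were positive in that comparison, and so were 8 of 8 rod markers, from 0.36 to 0.70, of which 0 were called; the part of rod RNA in the V1 differences was not tested. Atp6v1h, the H subunit that regulates the pump, read -1.51, -2.11 and -1.73 on the CH arrays, -0.61, -0.82 and -0.69 on the RPE arrays and -0.99, -1.31 and -0.97 on the PR arrays. The RPE arrays were highest and the CH arrays lowest, without overlap. The FC over the CH was 2.11 (log2 1.08 ± 0.16 SE, adjusted p = 0.0015), and the log2 difference RPE minus PR of 0.38 did not pass (adjusted p = 0.073). Atp6v1e1, part of the stalk between the sectors, read -0.31, -0.70 and -0.48 on the CH arrays, 0.44, 0.66 and 0.34 on the RPE arrays and -0.81, -0.75 and -0.61 on the PR arrays. Here the RPE stood alone above overlapping CH and PR arrays, 1.97-fold over the CH (log2 0.98, adjusted p = 0.00085) and 2.3-fold over the PR (log2 1.20, adjusted p = 2.8e-05).

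Atp6v1d, of the central rotor, read -0.43, -0.58 and -0.17 on the CH arrays, -0.02, -0.12 and -0.10 on the RPE arrays and -1.22, -1.27 and -1.29 on the PR arrays. The PR arrays were clearly lowest, 2.26-fold below the RPE (log2 1.18 ± 0.11 SE, adjusted p = 1.2e-05), while RPE minus CH was 0.31 (adjusted p = 0.078). The catalytic subunit Atp6v1a and the subunit Atp6v1f were 1.83-fold and 1.91-fold higher in RPE than in PR (adjusted p = 0.00037 and 0.00055), and Atp6v1c1 differed by no more than 0.13 on the log2 scale between any layers, with adjusted p from 0.40 to 0.79. The brain-enriched B subunit Atp6v1b2 was 2.59-fold higher in PR than in CH (log2 CH minus PR -1.37 ± 0.18 SE, adjusted p = 0.00011). That call was lost without CH replicate 2 (log2 -1.31), CH replicate 3 (log2 -1.22) or PR replicate 2 (log2 -1.31). Its kidney counterpart Atp6v1b1 read -0.27, -0.09 and -0.28 on the CH arrays, -0.08, 0.04 and -0.15 on the RPE arrays and -0.03, -0.05 and 0.11 on the PR arrays. Atp6v1b1 was well above background on 1 RPE array (replicate 2) and on no CH or PR array, and has no FC.

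**Figure D4:**
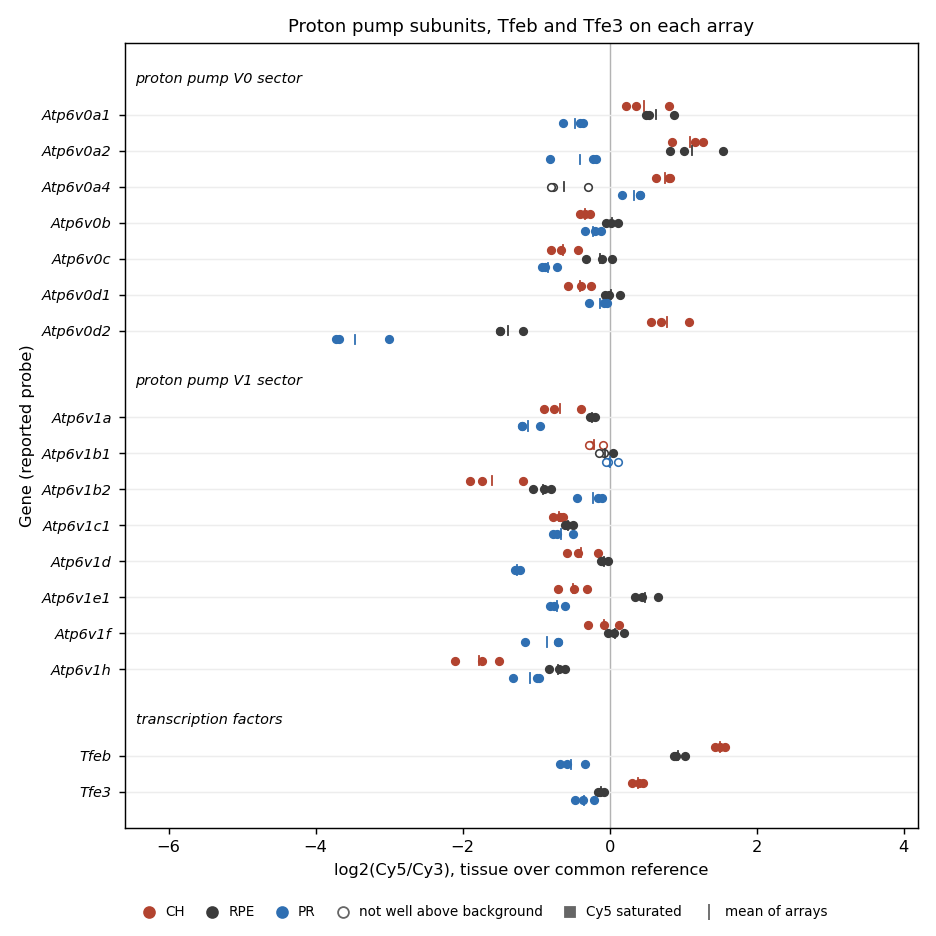
Log2(Cy5/Cy3) of each array (horizontal axis) for the 15 pump subunits, Tfeb and Tfe3 (vertical axis, grouped by role), drawn with the colours and symbols of the plot of the enzymes. The points of most subunits lie close together over the layers; Atp6v0d2 spans from -3.72 to 1.08.

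Tfeb, which drives lysosomal genes when it enters the nucleus, was higher in the CH and RPE than in the PR. It read 1.56, 1.51 and 1.43 on the CH arrays, 0.90, 0.87 and 1.02 on the RPE arrays and -0.58, -0.68 and -0.34 on the PR arrays. The layers did not overlap. Tfeb was 2.76-fold higher in RPE than in PR (log2 1.46 ± 0.11 SE, adjusted p = 1.96e-06) and 4.09-fold higher in CH than in PR, and 1.48-fold higher in CH than in RPE (adjusted p = 0.0048). Its relative Tfe3 read 0.46, 0.40 and 0.30 on the CH arrays, -0.15, -0.13 and -0.07 on the RPE arrays and -0.22, -0.47 and -0.36 on the PR arrays. The order was the same without overlap, but Tfe3 reached no more than 1.66-fold, between CH and PR (adjusted p = 9.2e-05), and the log2 difference RPE minus PR of 0.23 did not pass (adjusted p = 0.071). These values are RNA levels and say nothing of where the proteins were.

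The promoters of the genes were read for the element that Tfeb and Tfe3 bind. RefSeq promoters (GRCm38.p6, 250 bases before to 50 after the start) were at hand for 37 of the 47 genes, 45 promoters in all. The core TCACGTGA, which reads the same on both strands, occurred in 5 of the 45 promoters, 1 each of Ctsa, Ctsd, Gla, Atp6v0d1 and Atp6v1a (11.1%), and in 0.974% of all 32851 promoters. The shorter CACGTG, which lies inside it, occurred in 12 of the 45 (26.7%) and in 7.15% of all promoters. A match of letters is a description of the window and not a binding site. The 5 promoters are printed 5′ to 3′ with TCACGTGA in capitals, since they hold the letters searched for. Of the 5, Ctsd was called over the PR in the RPE, Ctsa in the CH alone, and Gla, Atp6v0d1 and Atp6v1a in neither.
Ctsa (chr2:164833523-164833822, plus strand): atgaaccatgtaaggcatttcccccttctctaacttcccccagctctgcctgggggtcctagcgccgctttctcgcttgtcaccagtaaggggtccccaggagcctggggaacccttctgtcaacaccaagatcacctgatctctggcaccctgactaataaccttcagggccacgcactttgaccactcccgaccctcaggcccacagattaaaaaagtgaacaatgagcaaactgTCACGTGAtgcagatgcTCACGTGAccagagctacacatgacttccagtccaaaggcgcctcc
Ctsd (chr7:142387778-142388077, minus strand): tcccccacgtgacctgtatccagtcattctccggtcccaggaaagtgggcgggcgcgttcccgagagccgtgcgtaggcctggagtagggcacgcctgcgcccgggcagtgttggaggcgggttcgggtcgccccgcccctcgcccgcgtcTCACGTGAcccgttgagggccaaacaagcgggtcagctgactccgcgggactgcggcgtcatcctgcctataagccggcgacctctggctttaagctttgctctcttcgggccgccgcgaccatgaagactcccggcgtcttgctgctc
Gla (chrX:134600956-134601255, minus strand): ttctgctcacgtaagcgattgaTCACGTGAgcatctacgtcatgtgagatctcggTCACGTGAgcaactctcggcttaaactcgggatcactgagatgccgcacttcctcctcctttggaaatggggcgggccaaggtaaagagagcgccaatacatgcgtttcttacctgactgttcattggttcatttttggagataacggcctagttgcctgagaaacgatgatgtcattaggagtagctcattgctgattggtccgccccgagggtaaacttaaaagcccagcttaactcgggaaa
Atp6v0d1 (chr8:105566015-105566314, minus strand): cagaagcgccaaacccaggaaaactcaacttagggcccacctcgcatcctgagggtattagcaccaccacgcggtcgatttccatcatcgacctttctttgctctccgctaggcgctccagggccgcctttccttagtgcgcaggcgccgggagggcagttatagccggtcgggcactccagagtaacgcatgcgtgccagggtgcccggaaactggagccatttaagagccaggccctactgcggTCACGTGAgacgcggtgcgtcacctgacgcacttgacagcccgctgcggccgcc
Atp6v1a (chr16:44139210-44139509, minus strand): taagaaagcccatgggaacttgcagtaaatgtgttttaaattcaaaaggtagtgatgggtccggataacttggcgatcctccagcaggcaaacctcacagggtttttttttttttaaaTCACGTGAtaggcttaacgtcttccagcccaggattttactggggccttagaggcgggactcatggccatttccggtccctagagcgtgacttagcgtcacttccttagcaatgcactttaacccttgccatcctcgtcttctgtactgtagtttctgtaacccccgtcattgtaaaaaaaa

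Ctsa and Gla hold the core in 2 places and the other promoters in 1. In Atp6v0d1 it starts 4 bases before the annotated start, and in Ctsd 99 bases before it.

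Further genes from 7 lists, 106 in all, were compared between the layers in the same way. The lists hold other lysosomal proteins and pump subunits, and also sorting, nutrient-sensing, cystatin and autophagy genes. The background was 10.9% of all genes called higher and 5.17% called lower in RPE than in PR. For CH over PR it was 12.7%, and for RPE against CH 0.182% higher and 1.75% lower. Of 29 other hydrolases, 15 were called higher in RPE than in PR and 0 lower (2 lower at an unadjusted p under 0.05), 14 were higher in CH than in PR, and 0 were called between RPE and CH (11 higher and 7 lower in the RPE at an unadjusted p under 0.05). Their median log2 difference RPE minus PR was 1.35. The largest was that of Scpep1, a serine carboxypeptidase (log2 3.48), and the lowest that of Dnase2a, the lysosomal DNase (log2 -1.05). Against the CH the highest was that of Aga, which cuts sugar chains off asparagine (log2 1.17).

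Of 19 other membrane and transport proteins, 6 were called higher and 1 lower in RPE than in PR, with the extremes at Cd164 (log2 3.21), a sialomucin, and Laptm4b (log2 -2.36). In the same list 2 were called higher in CH than in RPE: Laptm5 (log2 -2.08, adjusted p = 0.0029), of blood cell lysosomes, and Slc11a1 (log2 -1.60, adjusted p = 0.00042), the metal transporter of macrophage phagosomes. Cd164 had the largest excess in the RPE over the CH (log2 1.18). Of 10 further pump subunits, Atp6v0e was called higher (log2 2.48) and Atp6v0e2 lower (log2 -1.63) in RPE than in PR, while Tcirg1, the a subunit form of osteoclasts, had the lowest difference against the CH (log2 -0.95) and Atp6ap1 the highest (log2 0.74).

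The sorting list of 9 genes had 1 call between RPE and PR, Gga2, a coat adaptor (log2 2.41), with Gga3 lowest (log2 -0.59); against the CH it ran from Gnptab (log2 -0.63) to Gga1 (log2 0.16). Of 11 genes of the MiT family and of nutrient sensing, Mitf, the master regulator of pigment cells, was called higher (log2 4.07) and Flcn lower (log2 -1.42) in RPE than in PR, and against the CH Tfec was lowest (log2 -1.24), well above background on 1 RPE array alone, and Mtor highest (log2 0.88). Among 8 other cystatins, 2 were called higher in RPE than in PR, Cst6 (log2 1.91) and Cst7; Cst7 was well above background on all CH and RPE arrays and on no PR array, and Cst8 on all PR arrays, 1 RPE array and no CH array, so neither has an exact difference from the layer where it was dim. Against the CH, Cst7 was at a log2 difference of 0.50 (adjusted p = 0.28) and Cst13 at 0.0004. Among 20 autophagy genes, 3 were called higher in RPE than in PR, led by Map1lc3a (log2 1.92, and 0.82 against the CH), with Atg16l1 lowest (log2 -1.06); Gabarapl1 was lowest against the CH (log2 -0.33). Over the 106 genes the calls were 29 higher and 3 lower in RPE than in PR, and 0 higher and 2 lower in RPE than in CH, with 33 higher and 22 lower at an unadjusted p under 0.05, where 5333 and 5336 of all 31829 genes were.

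The 6 genes called between RPE and CH were compared across slides, since CH and RPE arrays shared slides 1 and 2. On slide 1, with 2 arrays of each layer, and on slide 2, with 1 of each, 6 of 6 kept their direction. On slide 1 the log2 differences RPE minus CH were -2.79 for Ctss, -1.97 for Atp6v0d2, -1.43 for Ctsh, -1.26 for Atp6v0a4, 1.31 for Cst3 and 1.39 for Ctsd, and none was called with so few arrays (adjusted p = 0.021 to 0.17). On slide 2 they were -3.27, -2.58, -1.79, -1.63, 1.87 and 1.88 in the same order. PR and RPE arrays shared slide 2 alone, where 22 of the 22 genes called between them kept their direction with differences of at least 1.20. The arrays of both slides were part of the fit that called these genes. A kept direction was therefore likely beforehand and is no independent check of the calls.

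**Figure D5:**
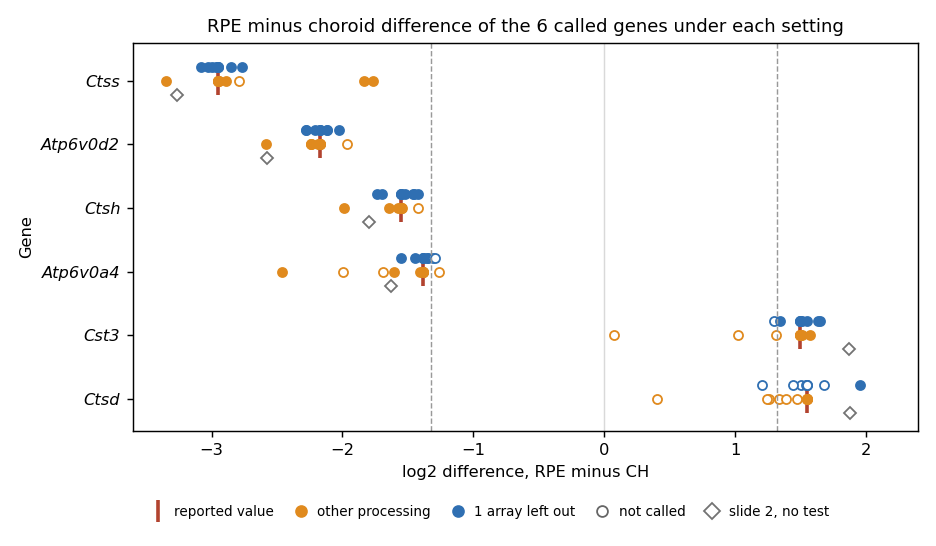
Log2 difference RPE minus CH (horizontal axis) of the 6 called genes (vertical axis): the reported value (red tick), other processing (orange), 1 array left out (blue) and slide 2 alone (grey diamonds, no test), with open circles where the call was lost and dashed lines at 1.32 in either direction. Ctss, Atp6v0d2 and Ctsh stay beyond the line at every setting and have an open circle for slide 1 alone, while open circles are most frequent for Ctsd.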

How the data were processed

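The authors extracted the scans of 9 two-colour Agilent arrays with Feature Extraction 9.5.3.1 and used limma in R 2.14.0; the probe positions in the files are those of mm9. The deposited output gives the mean signal and median local background of each spot as intensity on a linear scale, and a log10 ratio of processed red over green. The deposited series table holds log2 values that followed the raw Cy5 mean signal on a log2 scale (r = 0.985 to 0.999 per array). Its medians ran from 9.38 to 9.55, and it holds no reference ratio. How it was scaled is not given in the sources used here.

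Here, the intensities were corrected with normexp (offset 50) and loess in limma 3.58.1 (R 4.3.3), with control and outlier spots at weight 0 and then left out. Spots of a probe were averaged. A model with 1 mean per layer was fitted to all 9 arrays, and p-values were Benjamini-Hochberg adjusted over 39429 probes. The authors' methods also use a linear model in limma against the common reference. They do not say whether the 9 arrays were fitted together. Where a probe was saturated in Cy5, or was not well above background, on all arrays of a layer, bounds came from log2 Cy5 after loess and Aquantile normalization. On simulated data with 200 changed probes among 39429, the fit called 96% for RPE minus CH and 94.5% for RPE minus PR. The planted differences all lay well beyond the FC limit, so these shares do not hold for differences near it. The number of arrays limits the precision. The position of a probe within its gene was not annotated, as no mm9 annotation was used here.

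The members and lists were chosen with earlier results of these data known. Arrays were described for each gene called between RPE and CH, for the 2 largest and the smallest RPE minus PR differences and the largest RPE minus CH difference of each role, and for Ctsd, Cst3, Tfeb and Tfe3; Gaa and the second probes of Ctsd and Lamp2 were added after their values were seen. Of the further lists, the extremes of each RPE comparison are named, except 1 that is not reported here. The 25 alternatives covered background, normalization, reference channel, series table, replicate number and slide as blocks, arrays fitted, dim probes, probe choice, thresholds and each array left out. The marker lists for mast cells, cytotoxic lymphocytes, neutrophils, endothelium, Müller glia and red blood cells had 0, 0, 1, 0, 0 and 0 genes called higher in CH than in RPE, and 0 in the other direction. The columns of the scanner files that hold its own p-values were not used.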

Additional observations from a re-analysis of the deposited data

How the results depend on the processing

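The larger contrasts were stable and the few calls between RPE and CH were not. The 22 members higher in RPE than in PR numbered 18 to 30 over all alternatives and 22 with any array left out, and the 21 higher in CH than in PR numbered 15 to 29, and 21 with any array left out. Members higher in RPE than in CH, 2 as reported, numbered 0 with median centring, the Cy5 channel alone, the series table or slide 1 alone; 1 with the scanner's log ratio, slide as a block, 2 layers fitted or the brightest probe; 4 with an FC above 2; 9 without an FC limit; and 0 to 2 with an array left out (0 without CH replicate 2). Members higher in CH than in RPE, 4 as reported, numbered 7 with median centring, 0 on slide 1 alone, 12 without an FC limit and 3 to 4 with an array left out. With an FC above 2, Ctsb and Lamp1 joined the 4. Members higher in PR than in RPE, 0 as reported, numbered 1 with median centring, 2 with the scanner's log ratio, slide as a block or an FC above 2, 5 without an FC limit, and 0 to 1 with an array left out. Members higher in PR than in CH, 2 as reported, numbered 4 without an FC limit and 0 to 2 with an array left out (0 without CH replicate 2). Npc1 joined the 2 with the scanner's log ratio or an FC above 2. The cause of these shifts was not tested, except that fewer arrays on slide 1 and another threshold act by construction.

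Changes of sign were followed over the settings only for the genes whose arrays were described by rule. Among these genes, the signs that turned belong to differences of which none was called. The largest as reported were 0.58 for Cst3 between CH and PR, 0.31 for Atp6v1d and 0.23 for Tfe3. For RPE minus CH these were Ctsg (-0.002 on slide 1, and -0.028 to 0.114 with an array left out, below 0 without RPE replicate 2), Ctsw (0.047 with Cy5 alone, 0.063 in the series table), Cd63 (-0.31 with median centring, -0.16 on slide 1, and -0.146 to 0.131 with an array left out, below 0 without CH replicate 2 or RPE replicate 1), Atp6v0a2 (-0.25 with median centring, and -0.173 to 0.187 with an array left out, below 0 without CH replicate 3 or RPE replicate 1) and Atp6v1d (-0.016 with median centring). For RPE minus PR they were Ctsw (-0.11 with the scanner's log ratio, and -0.019 to 0.101 with an array left out, below 0 without PR replicate 2), Atp6v0d1 (-0.016) and Tfe3 (-0.074) with median centring, and Atp6v1b1 (0.039 with median centring, 0.30 with the scanner's log ratio, 0.15 with Cy5 alone, 0.17 in the series table, 0.11 with slide as a block). For CH minus PR they were Cst3 (-0.022 with Cy5 alone) and Atp6v1b1 (0.068 with the scanner's log ratio). Of the other genes, Npc1 (-0.064 as reported, 0.04 on slide 1), Gaa (0.098 and -0.009) and Atp6v0a1 (0.166 and -0.007) also turned for RPE minus CH. None of these differences was called as reported. The median over all genes moved by under 0.1 under every scaling.

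Whether the replicate numbers pair the arrays cannot be told from these data. Correlations of deviations ran from -0.107 to 0.325 between arrays of the same number and from -0.349 to 0.266 between other arrays. With 3 arrays per layer such deviations are not independent, and the arrays numbered 2 also share slide 2. With the replicate number as a block, the counts were 2 and 4 between RPE and CH, 22 and 0 between RPE and PR, and 21 and 2 between CH and PR. The series table gave no value for Cst3, nor for Cd63 in comparisons with the CH, and Atp6v1b1 dropped out where dim probes were left out.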
